A study of Mus musculus with 6 samples.

Results

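Transcripts of 41 genes for lysosomal hydrolases, their lumenal cofactors and lysosomal membrane proteins were compared between control and Tet1/Tet2 siRNA-treated BMMSCs. The genes were chosen by name, cathepsins excepted, from the 36870 symbols of the table, with earlier results of these data known. Each of the 41 was listed and tested. BMMSCs are the adherent cells that grow out of mouse bone marrow, here from strain C57BL/6 at passage 2 by the labels and passage 1 by the methods, kept for 14 days after the non-adherent cells had been washed away. The control group (3 libraries) received non-targeting siRNA according to the labels, whereas the RNA-sequencing methods call it vehicle, and the siTet1/Tet2 group (3 libraries) received siRNAs against both Tet1 and Tet2. Tet1 and Tet2 are dioxygenases that oxidise 5-methylcytosine in DNA, and the comparison asks which transcripts differ when both are targeted. No genetic deletion is named for either group. Neither the labels nor the methods say whether the libraries of a group came from separate cultures or animals, so p-values measure only the spread between these libraries, which may be technical.

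Lysosomes degrade sugars, lipids, proteins and nucleic acids at acid pH. Their soluble hydrolases travel from the Golgi on mannose 6-phosphate receptors or sortilin, saposins and related cofactors lift lipids out of membranes so that the enzymes can reach them, and the limiting membrane carries a heavily glycosylated coat, transporters, ion channels and the proton pump. Loss of single hydrolases or membrane proteins causes lysosomal storage disease. Transcription factors of the MiT/TFE family, Tfeb among them, bind an E-box with the core CACGTG in the promoters of many lysosomal genes. In bone marrow cultures, macrophages are known for a large lysosomal compartment and for lysozyme.

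The promoters carrying that E-box are shown here because they are what some of the members share besides their place in the cell. Of the 41 genes, 37 were matched by symbol to RefSeq promoters on GRCm38.p6, each covering 250 bases before to 50 bases after an annotated start, and a gene can have several. There was no entry for Aga, Galns, Asah1 and Npc1. The 9 windows below are 30 bases long and written along the strand of the gene. Capitals mark CACGTG with GT or T directly before it, AC or A directly after it, or both. The first 7 belong to members that rose in siTet1/Tet2 cells and the last 2, of Arsa and Lgmn, to members that did not pass the test.
Gla: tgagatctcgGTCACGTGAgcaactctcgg
Glb1: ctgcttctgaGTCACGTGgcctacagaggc
Naglu: caaccttcagGTCACGTGgcccgaggtcgg
Sgsh: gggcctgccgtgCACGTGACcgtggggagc
Lamp1: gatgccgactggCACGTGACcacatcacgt
Mcoln1: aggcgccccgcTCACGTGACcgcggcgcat
Cln3: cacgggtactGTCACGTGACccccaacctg
Arsa: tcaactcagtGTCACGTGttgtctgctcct
Lgmn: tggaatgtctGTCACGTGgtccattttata
The windows lie at chrX:134601182-134601211 on the minus strand for Gla, chr9:114401018-114401047 on the plus strand for Glb1 and chr11:101070009-101070038 on the plus strand for Naglu. Those of Sgsh, Lamp1 and Mcoln1 lie at chr11:119355522-119355551 on the minus strand, chr8:13159121-13159150 on the plus strand and chr8:3500462-3500491 on the plus strand. Those of Cln3, Arsa and Lgmn lie on the minus strands of chr7:126583340-126583369, chr15:89477423-89477452 and chr12:102439124-102439153. Lamp1 held 4 copies of CACGTG within its promoter, and Gla, Mcoln1 and Cln3 held 2 each.

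GTCACGTG, searched on both strands and overlapping CACGTG by construction, was present in 9 of 37 member promoter sets (24.3%), against 461 of 9882 genes tested that had a promoter (4.67%) and 2.25% of all promoters. CACGTG alone was present in 10 of 37 (27.0%), Gaa being the additional gene, against 11.6% of the genes tested and 7.15% of all promoters. The palindrome TCACGTGA was present in 3 of 37 (8.11%), those of Gla, Mcoln1 and Cln3, against 2.11% of the genes tested. Among members called higher, 7 of 25 with a promoter held GTCACGTG (28.0%), and among the other members 2 of 12 (16.7%), while CACGTG was held by 28.0% and 25.0% of them. In the other lysosomal lists searched, GTCACGTG was held by 10.5% of other hydrolases, 17.4% of other membrane proteins, 13.3% of proton pump subunits and 20.0% of cathepsins, and CACGTG by 21.1%, 21.7%, 26.7% and 40.0%. None of 17 macrophage marker genes with a promoter held either. These are matches of letters, and binding was not measured.

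Gene abundance was given as RPKM, read numbers corrected for transcript length and for the depth of each library. Log2 of RPKM plus 1 was compared between the groups with limma, two-sided, over the 13266 genes whose mean reached 0.1 RPKM, and a gene was called higher or lower at a Benjamini-Hochberg adjusted p under 0.05. Log2 differences below are on that scale, siTet1/Tet2 minus control, and understate the change of genes whose level is not far above 1 RPKM. No member is that low, the lowest group mean being 11.1 RPKM (Arsa in control). The table holds no read totals. Matching low values to whole reads gave estimates of 32400000 to 38600000 reads per library. At these depths the fewest reads estimated for a member in a library were about 950.0 (Ctns in control 3). The coefficient of variation between replicates had a median over the members of 6.0% in control (range 1.26% to 18.1%) and 3.73% in siTet1/Tet2 cells (range 0.991% to 12.8%).

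The targeted genes followed their labels as far as they could be measured. Tet2 stood at 2.57, 4.08 and 3.71 RPKM in control and 0.358, 0.238 and 0.202 RPKM in siTet1/Tet2 cells (log2 difference -1.801, SE 0.13, limma adjusted p = 2.88e-05), and the log2 ratio of its mean RPKM, without the pseudocount, was -3.70. Tet1 was listed at 0.032, 0.098 and 0.05 RPKM in control and at 0.001, 0.01 and 0.001 RPKM in siTet1/Tet2 cells, under the minimum for the test. Markers of macrophages and of stromal cells were both present. Csf1r, the macrophage colony-stimulating factor receptor, stood at 478 to 519 RPKM in control and 578 to 619 RPKM in siTet1/Tet2 cells, and Col1a1, a collagen chain of stromal cells, at 394 to 655 and 48.4 to 104 RPKM. Among stromal surface markers, Ly6a stood at 133 to 168 RPKM in control and 9.5 to 20.5 RPKM in siTet1/Tet2 cells, and Pdgfrb at 20.9 to 37.5 and 3.69 to 6.26 RPKM, whereas Thy1, Lepr and Nt5e did not exceed 0.146, 0.083 and 1.02 RPKM in any library. The cultures are therefore called by their label, BMMSCs, without a claim about which cells in them carried the lysosomal transcripts.

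Most of the lysosomal genes were higher in siTet1/Tet2 cells. Of the 41 members, 28 were called higher (68.3%) and 1 lower (2.44%), against 14.7% higher and 29.8% lower among all genes tested. Their median log2 difference was 0.39, against -0.09 for all genes tested. Because the members were chosen with earlier results of these data known, these comparisons with all genes are descriptive only. Among the 6015 genes at least as abundant in control as the lowest member, 16.7% were higher, 33.3% were lower and the median was -0.10. The 3 libraries of a group did not overlap those of the other for 30 members that were higher (19.8% of all genes tested) and 2 that were lower (35.9% of all genes tested). By the thresholds of the study, a fold change over 2 together with p under 0.05 before adjustment, 3 members were altered upwards (0.95% of all genes tested) and 0 downwards (5.63% of all genes tested), so most of these increases were smaller than 2-fold. The transcripts of the 41 genes together made up 3.77% to 3.94% of the summed RPKM of a control library and 6.31% to 7.06% of a siTet1/Tet2 library. Lyz2 and Psap accounted for 2.02% to 2.2% and 4.2% to 4.91%, and the other 39 members for 1.73% to 1.75% and 2.1% to 2.15%.

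**Figure D1:**
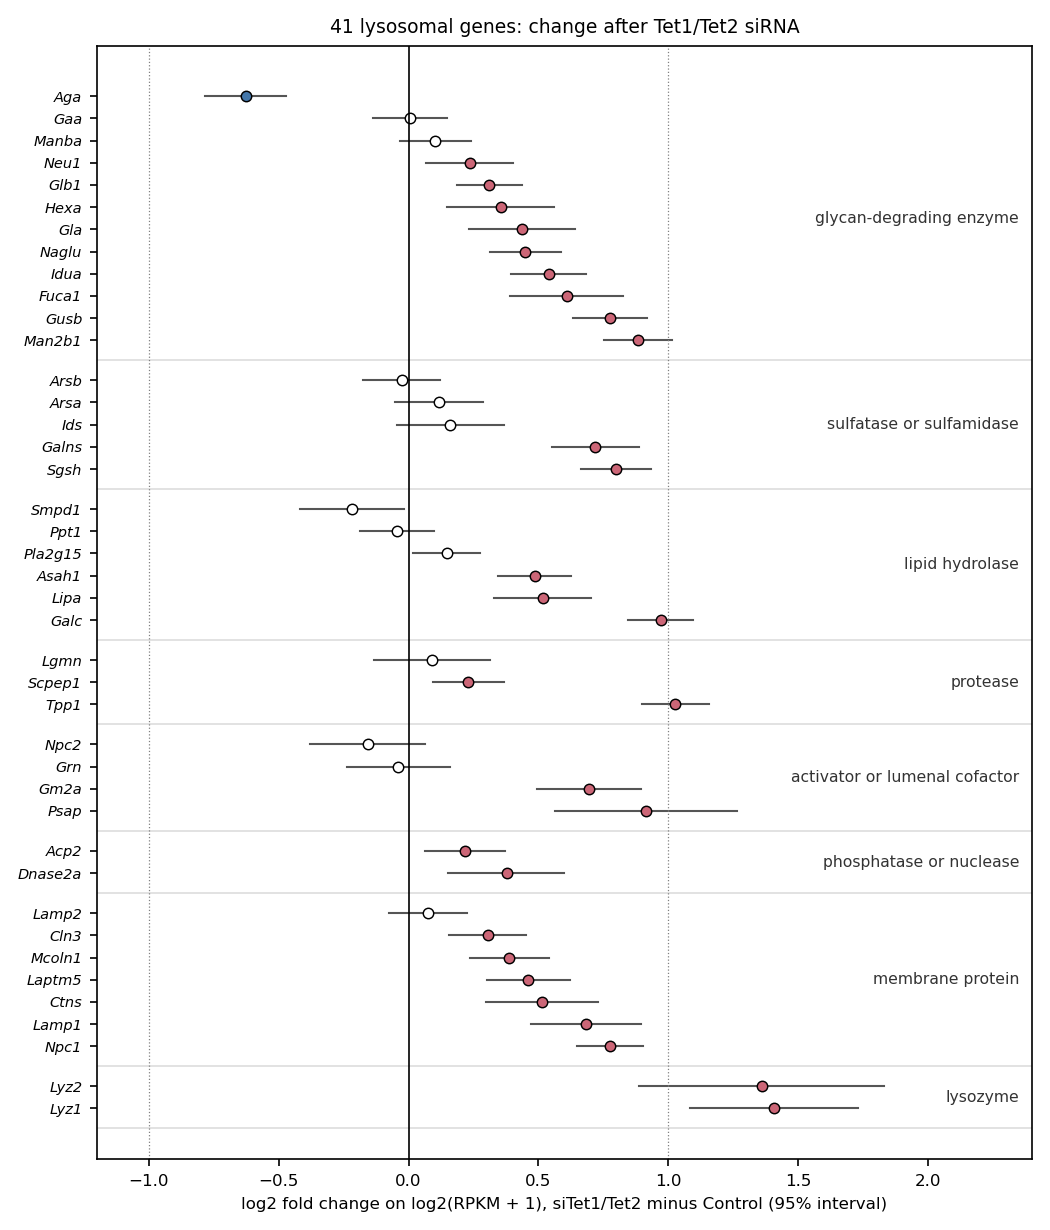
Log2 difference (siTet1/Tet2 minus control, log2 of RPKM plus 1) of each of the 41 members with its 95% interval from limma, grouped by role, with points filled red for members called higher and blue for the member called lower at an adjusted p under 0.05, and open points for the others. The 28 members called higher extend from Acp2 at 0.22 to Lyz1 at 1.41, and Aga at -0.63 is the member called lower.

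**Figure D2:**
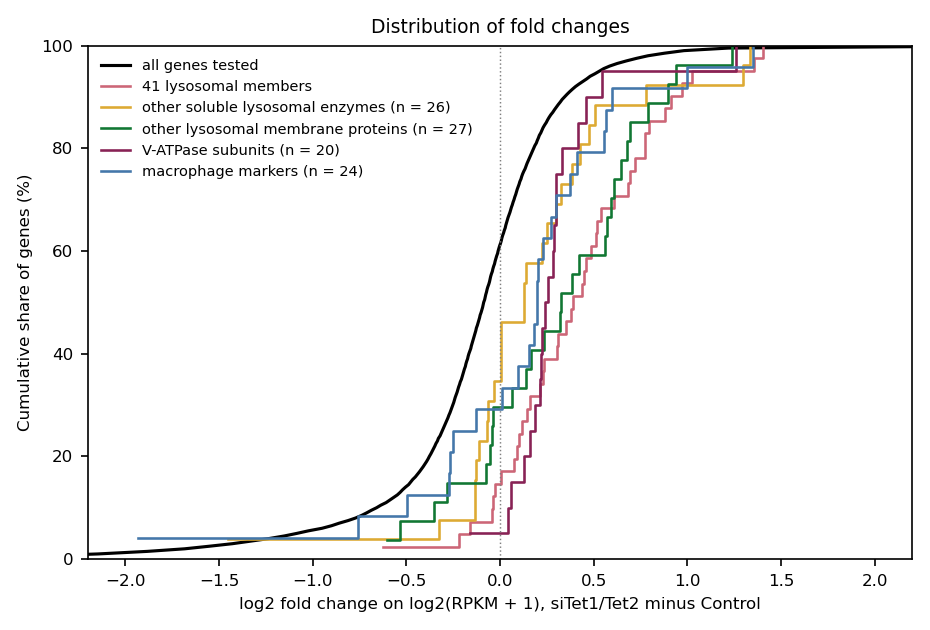
Cumulative share of genes (vertical axis, percent) against the log2 difference (horizontal axis) for all genes tested, the 41 members, 3 other lysosomal lists and the macrophage markers. The curve of the members lies to the right of that of all genes tested, with medians of 0.39 and -0.09, and the macrophage markers lie between them with a median of 0.20.

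The lysozymes, which cut the peptidoglycan of bacterial walls, had the largest increases. Lyz1 stood at 191, 181 and 134 RPKM in control and 489, 457 and 393 RPKM in siTet1/Tet2 cells, a log2 difference of 1.41 (SE 0.14, limma adjusted p = 0.000119). Lyz2, the macrophage lysozyme, stood at 5013, 4757 and 3547 RPKM in control and 12728, 11393 and 9842 RPKM in siTet1/Tet2 cells, a log2 difference of 1.36 (SE 0.21, limma adjusted p = 0.001). In both genes every siTet1/Tet2 library exceeded every control library, and replicate 3 was the lowest of each group. Both genes lie on chromosome 10, Lyz2 at chr10:117277331-117282321 and Lyz1 at chr10:117287797-117292868 on the minus strand (GRCm38). Of the 100-base stretches of their transcripts, 2.06% for Lyz1 and 1.97% for Lyz2 were identical between them, and 55.2% and 52.8% matched with at most 5 mismatches, so a part of the reads of one may have been assigned to the other. The ratio of Lyz2 to Lyz1 was 26.2, 26.3 and 26.5 in control and 26.0, 24.9 and 25.1 in siTet1/Tet2 cells. Their summed RPKM had a log2 difference of 1.36 (SE 0.21, limma adjusted p = 0.00103).

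Among the glycan-degrading enzymes, 9 of 12 were called higher and 1 lower, with a median log2 difference of 0.40. Man2b1, the acid alpha-mannosidase that trims the mannose core of glycoproteins, stood at 158, 154 and 156 RPKM in control and 283, 290 and 294 RPKM in siTet1/Tet2 cells (log2 difference 0.88, SE 0.06, limma adjusted p = 1.5e-05). Gusb, the beta-glucuronidase of glycosaminoglycan breakdown, stood at 212, 210 and 207 RPKM against 368, 367 and 344 RPKM (log2 difference 0.78, SE 0.06, limma adjusted p = 4.1e-05). The gaps between the groups were many times the spread within them. Fuca1, which removes fucose, rose by a log2 difference of 0.61, Idua, which removes iduronic acid from heparan and dermatan sulfate, by 0.54, and Naglu, a further enzyme of heparan sulfate breakdown, by 0.45. Gla, which removes galactose from globo-series lipids, rose by 0.44, Hexa, a subunit of beta-hexosaminidase, from 526.6 ± 49.2 to 672 ± 21.9 RPKM (SD, n = 3, limma log2 difference 0.36), and Glb1, the beta-galactosidase, by 0.31.

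The smallest called increase of these was Neu1, the lysosomal sialidase, from 28.2 ± 1.90 to 33.3 ± 1.804 RPKM (SD, n = 3, limma log2 difference 0.24, adjusted p = 0.0298). It missed the threshold without control replicate 2 (limma adjusted p = 0.0549), without siTet1/Tet2 replicate 1 (0.101) or without siTet1/Tet2 replicate 2 (0.111). Hexa missed it without siTet1/Tet2 replicate 2 (limma adjusted p = 0.0597). Manba, the beta-mannosidase, stood at 18.3 ± 0.50 and 19.7 ± 0.32 RPKM (SD, n = 3) with no overlap and a log2 difference of 0.10 that was not called (limma adjusted p = 0.196). Gaa, which digests glycogen, stood at 43.7 ± 2.58 and 43.8 ± 0.81 RPKM (SD, n = 3), with an interval of the log2 difference from -0.14 to 0.15.

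Aga was the 1 member called lower. It encodes the amidase that splits the bond between asparagine and the sugar chain of a glycoprotein, and lies at chr8:53511727-53523421 on the plus strand (GRCm38). Its values were 57.0, 52.0 and 50.02 RPKM in control and 34.4, 35.0 and 32.4 RPKM in siTet1/Tet2 cells (log2 difference -0.63, SE 0.07, limma adjusted p = 0.000175). All 3 siTet1/Tet2 libraries lay below all control libraries, opposite to Man2b1, Fuca1 and Gusb, and the call was kept under each alternative tried.

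Sulfatases and the sulfamidase strip sulfate from glycosaminoglycans and glycolipids, and 2 of these 5 genes were called higher. Sgsh, the heparan sulfamidase, stood at 16.9, 17.99 and 17.9 RPKM in control and 30.9, 31.7 and 31.5 RPKM in siTet1/Tet2 cells (log2 difference 0.80, SE 0.06, limma adjusted p = 2.75e-05). Galns, which acts on keratan sulfate and chondroitin sulfate, went from 37.2 ± 2.30 to 61.9 ± 4.06 RPKM (SD, n = 3, limma log2 difference 0.72). The log2 differences of Ids (iduronate sulfatase), Arsa (sulfatide sulfatase) and Arsb (dermatan sulfate sulfatase) were 0.16, 0.12 and -0.03, and none passed the test. Sgsh shares 21.6% of its exonic bases with the antisense gene Card14, and Arsb and Arsa share 39.9% and 18.8% with antisense transcripts, and whether strand was used in counting is not given in the sources used here.

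The lipid hydrolases were divided, with 3 of 6 called higher. Galc, which cleaves galactosylceramide, stood at 39.5, 41.6 and 41.6 RPKM in control and 82.4, 81.0 and 79.7 RPKM in siTet1/Tet2 cells (log2 difference 0.97, SE 0.05, limma adjusted p = 7.2e-06), with the libraries of each group close together and far from the other group. Lipa, the acid lipase of cholesteryl esters and triglycerides, rose from 537 ± 34.0 to 768 ± 28.9 RPKM (SD, n = 3, limma log2 difference 0.52), and Asah1, the acid ceramidase, from 159 ± 7.17 to 223 ± 4.05 RPKM (log2 difference 0.49). Ppt1, which removes palmitate from proteins, had a log2 difference of -0.04. Pla2g15, a lysosomal phospholipase, had one of 0.15 with no overlap of the groups and was not called (limma adjusted p = 0.0648).

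Smpd1, the acid sphingomyelinase, stood at 17.7 ± 2.00 RPKM in control and 15.0 ± 0.28 RPKM in siTet1/Tet2 cells (SD, n = 3), without overlap. Its log2 difference of -0.22 was not called (limma adjusted p = 0.0762), and it was called lower with the replicate number as a block, which pairs the libraries (adjusted p = 0.0422), after rescaling each library to the same sum (log2 difference -0.29, limma adjusted p = 0.0173) and without control replicate 3 (log2 difference -0.31, limma adjusted p = 0.0055).

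Of the 3 proteases, Tpp1 and Scpep1 were called higher. Tpp1, which takes tripeptides off the ends of proteins, stood at 65.6, 64.8 and 63.9 RPKM in control and 138, 134 and 127 RPKM in siTet1/Tet2 cells (log2 difference 1.03, SE 0.06, limma adjusted p = 7.05e-06). In the values as deposited it was the only member outside the lysozymes to pass the 2-fold threshold of the study. Its adjusted p there was the lowest of the 41. Rescaled to the same sum, its log2 difference was 0.97, under that threshold, and by the median ratio 6 of the 41 members passed. Scpep1, a serine carboxypeptidase, rose from 156 ± 4.04 to 183 ± 7.25 RPKM (SD, n = 3, limma log2 difference 0.23), and missed the threshold without control replicate 2 (adjusted p = 0.0629), siTet1/Tet2 replicate 1 (0.0615) or siTet1/Tet2 replicate 2 (0.0735). Lgmn, the asparaginyl endopeptidase, was the 23rd most abundant row in control and the 25th in siTet1/Tet2 cells, and its log2 difference of 0.09 was not called.

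The cofactors showed the same division. Psap, the precursor of the saposins that present sphingolipids to Galc, Gla, Arsa and Asah1, stood at 4488, 4521 and 4411 RPKM in control and 8905, 8471 and 7958 RPKM in siTet1/Tet2 cells (log2 difference 0.92, SE 0.15, limma adjusted p = 0.00172). It ranked 3 among all rows in control and 5 in siTet1/Tet2 cells, and Lyz2 ranked 4 and 3. Gm2a, the activator that presents a ganglioside to hexosaminidase, rose from 37.4 ± 4.41 to 61.0 ± 2.10 RPKM (SD, n = 3, limma log2 difference 0.70). Npc2, which hands cholesterol to Npc1, stood at 367 ± 41.7 and 328 ± 18.7 RPKM (log2 difference -0.16), and was called lower only without control replicate 3 (log2 difference -0.26, limma adjusted p = 0.0121) and after rescaling each library to the same sum (adjusted p = 0.0239). Grn, the precursor of granulins, had a log2 difference of -0.04 with an interval from -0.24 to 0.16.

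Quantile normalization, which assigns values by rank, changed the calls of the most abundant members. Psap turned to -0.23 (limma adjusted p = 0.0113), Lyz2 was held at 0.06 (0.455) and Grn was called lower at -0.30 (0.0112). Under the other 17 alternatives the increases of Psap and Lyz2 were called.

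**Figure D3:**
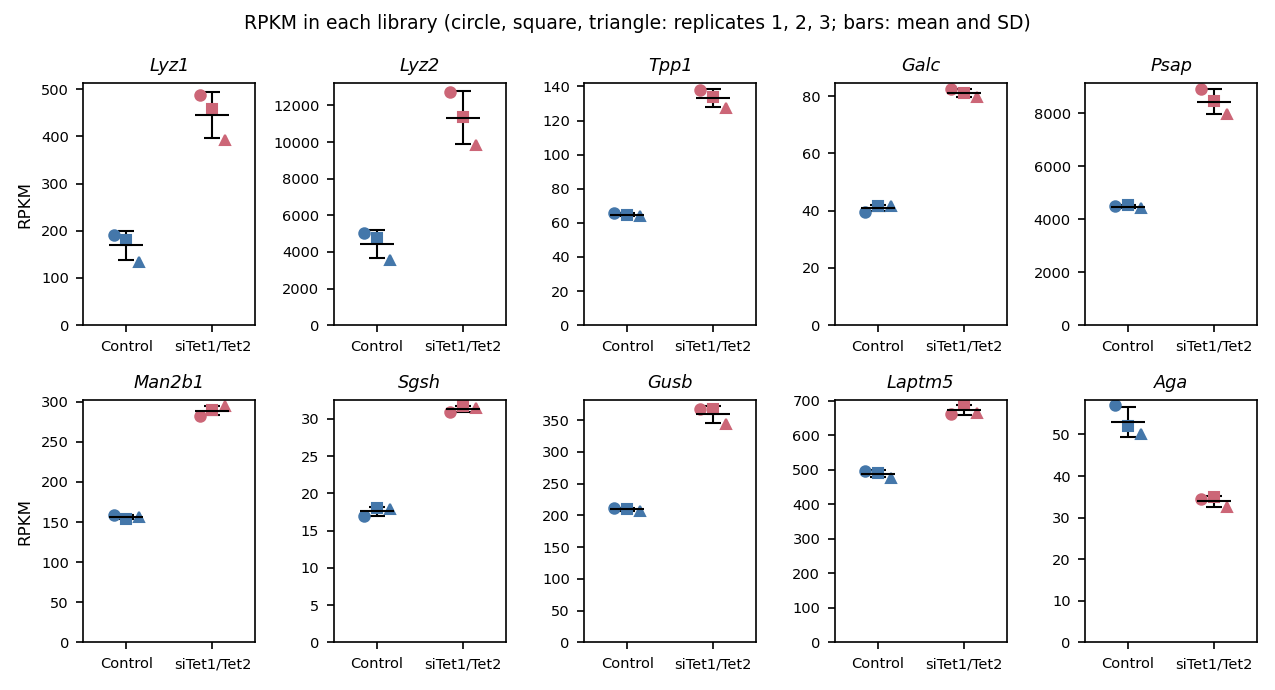
RPKM of the members in each of the 6 libraries, for the 10 genes whose libraries are given singly in the text, with a symbol for each replicate and bars for the mean and SD of each group (n = 3). For 9 of the genes every siTet1/Tet2 point lies above every control point, and for Aga every one lies below.

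Acp2 and Dnase2a, an acid phosphatase and the nuclease that digests engulfed DNA, were both called higher, with log2 differences of 0.22 and 0.38. Acp2 missed the threshold without control replicate 2 (limma adjusted p = 0.0576), siTet1/Tet2 replicate 1 (0.0976) or siTet1/Tet2 replicate 2 (0.113). Dnase2a missed it without siTet1/Tet2 replicate 1 (limma adjusted p = 0.0554) or 2 (0.0561), and a part of its exonic bases is shared with the antisense gene Mast1.

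Of the membrane proteins, 6 of 7 were called higher, with a median log2 difference of 0.46. Npc1, which moves cholesterol out of the lysosome, went from 71.3 ± 2.29 to 122.6 ± 2.54 RPKM (SD, n = 3, limma log2 difference 0.77). Lamp1, a main glycoprotein of the limiting membrane, went from 719 ± 53.9 to 1154 ± 53.9 RPKM (log2 difference 0.68) and from rank 47 to rank 32 of all rows. Its paralog Lamp2 stood at 262 ± 10.5 and 276 ± 10.9 RPKM, and its log2 difference of 0.08 was not called (interval -0.08 to 0.23).

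Ctns, the cystine exporter, had a log2 difference of 0.51, Mcoln1, the cation channel TRPML1 that releases calcium, one of 0.39, and Cln3, the membrane protein lost in Batten disease, one of 0.31. Laptm5, a lysosomal protein of haematopoietic cells that promotes receptor turnover, stood at 497.5, 492 and 478 RPKM in control and 663, 691 and 666 RPKM in siTet1/Tet2 cells (log2 difference 0.46, SE 0.07, limma adjusted p = 0.00103), again without overlap. Of the members with GTCACGTG in a promoter, Lamp1, Mcoln1, Cln3, Sgsh, Naglu, Gla and Glb1 rose, and Arsa and Lgmn were not called. Of all 41 members, 28 (68.3%) were called higher, and whether the motif goes with the increase was not tested.

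Replicate 3 of each group stood lower than the others for most members. It was the lowest of its group for 31 of 41 members in control and for 31 of 41 in siTet1/Tet2 cells, against 37.6% and 27.6% of all genes tested. The log2 ratio of replicate 3 to the mean of the other replicates had a median over the members of -0.10 in control and -0.08 in siTet1/Tet2 cells, and over all genes tested of 0.02 and 0.05. Without control replicate 3, 28 members were called higher and 3 lower, and without siTet1/Tet2 replicate 3, 28 higher and 1 lower.

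The remainder of the lysosomal pathway was read from 6 lists compiled by hand, also with earlier results of these data known. Over their 117 genes tested, 56 were called higher (47.9%) and 8 lower (6.84%), with a median log2 difference of 0.23. Among all genes tested, 14.7% were higher and 29.8% lower. The proton pump, which acidifies the lumen, had 11 of 20 subunits higher and 0 lower, with 1.26 for Atp6v0d2 (57.6 ± 1.83 to 139 ± 10.9 RPKM, SD, n = 3), 0.55 for Atp6v1b2 and 0.46 for Atp6v0b. Of 27 other membrane proteins, 15 were higher and 4 lower. Hgsnat, the membrane acetyltransferase that works between Sgsh and Naglu on heparan sulfate, had a log2 difference of 1.24, the amino acid transporter Slc36a1 0.94 and the metal transporter Slc11a1 0.90, against -0.60 for Cd164, -0.54 for Lamp3 (mean RPKM 1.55 and 0.759) and -0.35 for Laptm4b.

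Of 26 other hydrolases and lumenal proteins tested, 10 were higher (38.5%) and 2 lower (7.69%). Their median log2 difference was 0.13, against 0.39 for the members. The largest log2 differences were 1.34 for Creg1, 1.30 for Acp5 (tartrate-resistant acid phosphatase) and 0.78 for Dpp7 (a dipeptidyl peptidase), against -1.45 for Epdr1 and -0.32 for Cpq. Of 12 cathepsins, the lysosomal proteases kept apart from the members, 7 were higher and 1 lower, with 0.82 for Ctsf, 0.67 for Ctsd, 0.59 for Ctsh and -0.89 for Ctsc, which activates granule proteases.

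Sorting factors carry the members to the lysosome, and 7 of 19 were higher and 1 lower (Sorcs2, log2 difference -0.22, at a mean of 0.320 RPKM in control and 0.132 RPKM in siTet1/Tet2 cells, a ratio of 0.414). Sort1, sortilin, a receptor for Psap and other cargo, stood at 10.7, 10.9 and 10.2 RPKM in control and 64.6, 62.0 and 58.1 RPKM in siTet1/Tet2 cells (log2 difference 2.43, SE 0.07, limma adjusted p = 4.26e-07). Sorl1 and Cln8 had log2 differences of 0.55 and 0.35. Of the mannose 6-phosphate receptors, M6pr was not called (log2 difference 0.15, limma adjusted p = 0.0879). Igf2r was called higher (log2 difference 0.33, limma adjusted p = 0.0456), and missed the threshold without any 1 library except control replicate 3 (adjusted p from 0.086 to 0.141).

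Among 13 transcriptional and nutrient regulators, 6 were higher and 0 lower. Tfeb stood at 14.9, 13.3 and 14.1 RPKM in control and 22.8, 21.3 and 22.7 RPKM in siTet1/Tet2 cells (log2 difference 0.63, SE 0.07, limma adjusted p = 0.000195). Its relatives Tfe3, Mitf and Tfec had log2 differences of 0.31, 0.30 and 0.23, of which Tfec was not called (limma adjusted p = 0.0703). Mitf (limma adjusted p = 0.0318) missed the threshold without any 1 library except control replicate 3 (adjusted p from 0.0512 to 0.112). Rragd and Flcn, which act on the control of these factors by nutrients, had 0.53 and 0.48. Transcript levels do not show where the proteins were, and their localisation was not measured.

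Markers of cell types moved beside the lysosomal genes. The summed level of 24 macrophage markers was 6642 to 8234 RPKM in control and 8491 to 8912 RPKM in siTet1/Tet2 cells. Of these markers, 9 were higher (37.5%, against 14.7% of all genes tested) and 6 lower (25.0%, against 29.8%). Their median log2 difference was 0.20. The median level of these markers within a library was 182 to 184 RPKM in control and 150 to 172 RPKM in siTet1/Tet2 cells. Tyrobp had a log2 difference of 1.35 and Fcgr1 one of -1.93. Ptprc, which encodes CD45, stood at 47.4 to 56.0 and 47.2 to 59.3 RPKM. The summed level of 21 stromal markers was 2861 to 3467 RPKM in control and 504 to 889 RPKM in siTet1/Tet2 cells, with 15 of 18 tested lower and 1 higher (Vcam1). In these bulk libraries fewer cells of a type and less RNA per cell cannot be told apart, and the part of a shift in cell types in the lysosomal increases was not tested. Setting that median level equal in all libraries, which raises the siTet1/Tet2 values, gave 32 members higher and 1 lower with a median log2 difference of 0.57, and does not correct for the higher sum.

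The marker lists of other cell types summed to low levels. The summed level of 9 neutrophil markers was 3.4 to 3.54 RPKM in control and 9.35 to 16.2 RPKM in siTet1/Tet2 cells. It was mostly S100a8 and Camp in control and almost all S100a8 in siTet1/Tet2 cells. These were the 2 tested, and they went opposite ways. S100a8 was called higher (log2 difference 2.18) and Camp lower (-1.21, mean RPKM 1.45 in control and 0.058 in siTet1/Tet2 cells). S100a9 was listed at 0.001 RPKM in all libraries. The summed level of 8 lymphoid markers was 2.81 to 3.59 and 8.93 to 9.66 RPKM, mostly Cd4, with Cd3d at no more than 0.027 RPKM. The summed level of 7 osteoclast markers was 13.4 to 15.3 and 15.3 to 15.6 RPKM, mostly Nfatc1 and Itgb3, with Calcr at no more than 0.008 RPKM. Of the 4 tested, 0 were called. That list leaves out Acp5, Atp6v0d2, Ctsk and Tcirg1, which osteoclasts also express and which were called higher. Their mean RPKM in control and siTet1/Tet2 cells was 3.72 and 10.4, 57.6 and 139, 10.6 and 14.3, and 223 and 260. The part of these cell types in the results was not tested.

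A few rows held a large share of the summed RPKM, which is corrected for length and is not a share of reads. The 10 most abundant rows of each library held 10.6% to 11.8% of the summed RPKM in control and 17.8% to 20.1% in siTet1/Tet2 cells. Scaling each library to the same sum left 27 members higher and 3 lower, with a median log2 difference of 0.33. The same scaling without the 10 rows of highest mean left 29 higher and 1 lower, with a median of 0.45. Scaling by the median ratio left 32 higher and 1 lower, with a median of 0.505. The 4 members gained by the median ratio were Manba, Arsa, Pla2g15 and Ids. Over all genes tested, the share of calls depended more on the scaling. As deposited, 1953 were higher and 3952 lower, and 1525 and 4376 when rescaled to the same sum. The numbers were 2865 and 2950 by the median ratio, and 3607 and 2627 after quantile normalization.

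**Figure D4:**
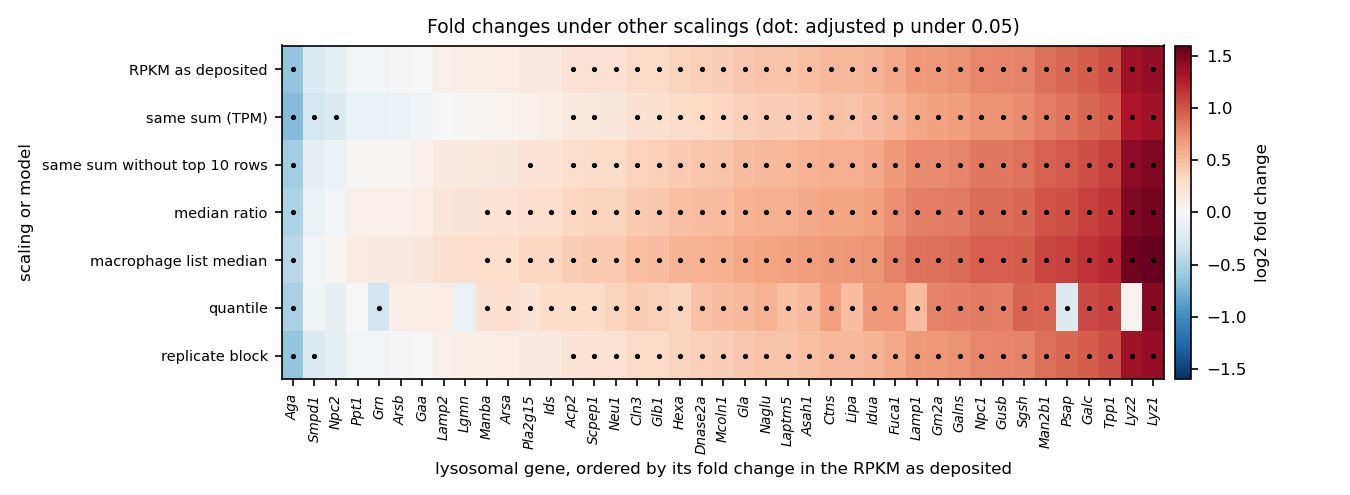
Log2 difference of each member (columns) in the values as deposited, under 5 other scalings and with the replicate block (rows), in colour from lower (blue) to higher (red) in siTet1/Tet2 cells, with a dot where the adjusted p was under 0.05. Aga is lower in every row, and Psap turns from higher to lower in the quantile row.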

How the data were processed

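RNA-seq of 3 control and 3 siTet1/Tet2 libraries was analysed from 1 table. The authors trimmed adaptors, mapped paired-end reads to GRCm38 and used DNASTAR Lasergene to quantify genes. They deposited linear RPKM values, which the methods call FPKM. Annotation release, use of strand and treatment of reads matching several places are not given in the sources used here. A column with the authors' p-values for the same comparison was not used. Its 36915 rows hold 36870 symbols. For 37 symbols on several rows, that of highest mean stood for the gene. The lowest listed value is 0.001.

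Values were analysed with limma 3.58.1 in R 4.3.3 (lmFit, eBayes with trend) on log2 of RPKM plus a pseudocount of 1, for genes whose mean reached 0.1 RPKM, with Benjamini-Hochberg adjustment over 13266 genes. For a single gene, 3 against 3 libraries cannot reach an exact permutation p under 0.1. The script was tested on simulated data. Members and lists were chosen with earlier results of these data known. Values in every library were given for the 8 members with the largest called increase, for the called decrease, and for Lyz1, Lyz2 and Laptm5. From each other lysosomal list up to 3 called changes each way were named, plus Tfeb, Tfe3, Mitf, Tfec, Sort1, M6pr and Igf2r. Positions are from GENCODE M21 (GRCm38), with Python 3.11.15.

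Depth was estimated from low values of genes with 1 transcript. Between 50.5% and 56.7% came within 0.1 of a whole read at the best depth (20% by chance at a depth chosen beforehand), so reads were not recovered and no count test was run. Replicates correlated at r of 0.992 to 0.997 and libraries of different groups at 0.949 to 0.969. The groups share replicate numbers, and deviations of same-numbered libraries from their group means correlated at 0.149, 0.117 and 0.462 across genes, so a fit with the number as a block was also made. Control 1 with siTet1/Tet2 2 (0.332) and control 2 with siTet1/Tet2 1 (0.205) correlated more than numbers 1 and 2 did with themselves, so the pairing is uncertain. Neither labels nor methods say what a number stands for.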

Additional observations from a re-analysis of the deposited data

How the results depend on the processing

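The 41 members were refitted under 18 alternatives (a pseudocount of 0.1 or 0.01, low values kept, a minimum mean of 1 RPKM, 5 other scalings, eBayes without trend, the replicate block, each library left out and rows of the same symbol summed). Of 738 results, 699 kept their side of the threshold, 19 lost and 19 gained a call, and 1 reversed, Psap at -0.23 under quantile normalization. The 699 include changes of sign in members called in neither fit. Gaa, for example, stood at 0.006 as deposited and at -0.057 when rescaled to the same sum. Of the 28 members called higher, 20 kept the call under every alternative. The other 8 were Hexa, Gla, Neu1, Scpep1, Acp2, Dnase2a, Lyz2 and Psap.

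Members called higher numbered 23 to 28 with a library left out, 23 with no filter and 27 when rescaled to the same sum. They numbered 32 by the median ratio and when centred on the macrophage list. Members called lower numbered 3 with quantile normalization, 3 when rescaled to the same sum, 2 with the replicate block and 1 to 3 with a library left out (3 without control replicate 3). The block changed no other member's call. Members altered upwards numbered 6 by the median ratio and 6 when centred on the macrophage list, and the members' median log2 difference was 0.505 and 0.566. When rescaled to the same sum, 2 were altered upwards and the median was 0.33. The median was 0.35 to 0.44 with a library left out.

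In the other lysosomal lists, genes called lower numbered 8, and 4 with no filter, 5 by the median ratio, 4 with quantile normalization, 5 when centred on the macrophage list and 5 to 8 with a library left out (5 without siTet1/Tet2 replicate 2). The median log2 difference of all genes tested, -0.09, turned to 0.004 by the median ratio, 0.055 with quantile normalization and 0.052 when centred on the macrophage list. All genes called higher and lower numbered 1230 and 2514 with no filter, and 3154 and 2407 when centred on the macrophage list. Quantile normalization fixes the highest ranks by construction. Using no filter adds genes to the adjustment and also changed the standard errors, from 0.06 to 0.025 for Manba and from 0.205 to 0.252 for Lyz2. The causes of the differences between alternatives were not tested.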

Other observations

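Grouped by substrate after their values were seen, the members that dismantle heparan sulfate were Ids, Idua, Naglu, Sgsh and Gusb, with log2 differences of 0.16, 0.54, 0.45, 0.80 and 0.78, of which Ids was not called. Hgsnat, of the same route and outside the member list, stood at 1.24.

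Members acting on sphingolipids were similarly grouped. Galc, Psap, Gm2a, Asah1, Gla, Hexa and Glb1 were called higher, at log2 differences from 0.31 (Glb1) to 0.97 (Galc). Arsa (0.12) and Smpd1 (-0.22) were not called. The groupings were not tested as sets.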
